A study of Mus musculus with 12 samples.

Results

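A set of 10 genes of the MHC class I presentation pathway was followed in bone marrow-derived macrophages (BMDMs) of wild-type and Nlrp3-/- mice. They were picked by symbol: H2-K1, H2-D1, B2m, Tap1, Tap2, Tapbp, Psmb8, Psmb9, Psmb10 and Nlrc5, that is 10 of the 55335 genes in the table. All 10 were above the filter on low values and belonged to the 12622 genes tested. RNA was sequenced in 12 libraries, 3 for each of 4 groups: wild-type control, wild-type with LPS+ATP, Nlrp3-/- control and Nlrp3-/- with LPS+ATP. The LPS+ATP groups received lipopolysaccharide for 4 hours and then adenosine triphosphate for 30 min by the labels, while the methods of the study give longer times for both agents; the control groups received neither. All cells came from C57BL/6 bone marrow of a single stated age that was grown with macrophage colony-stimulating factor, and adherent cells were used. The Nlrp3-/- mice lack Nlrp3 in the whole body and came from another supplier than the wild-type mice. The methods call replicates independent in general, but do not say whether the libraries of a group came from separate mice or cultures, so the p-values measure only the spread between these samples, which may be technical.

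MHC class I molecules show peptides from inside the cell to CD8+ T cells. Proteasomes cut proteins into peptides, the TAP transporter carries the peptides into the endoplasmic reticulum, and there a loading complex fits them onto a heavy chain paired with beta-2-microglobulin. In macrophages, interferons and Toll-like receptor ligands such as LPS are known to raise these genes, with NLRC5, IRF, STAT and NF-kB proteins acting at their promoters. NLRP3 is the sensor of an inflammasome, and LPS followed by ATP is the usual way to activate it. The Nlrp3-/- cells lack this sensor, but their mice also differed from the wild-type mice in supplier and, by the markers below, in sex. Dependence on the inflammasome thus cannot be told apart from these differences.

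Nlrp3 was listed at 0 in all Nlrp3-/- libraries and had a mean of 9.68 FPKM in wild-type control and 32.9 FPKM in wild-type LPS+ATP libraries. Pearson's r of log2 values was 0.990 to 0.993 within groups and 0.815 to 0.964 between groups. FPKM, fragments scaled to gene length and library size, holds no read counts, so depth in reads is unknown; the steps between low values gave relative depths of 1 to 1.22. The 6 macrophage markers were present in all groups, with summed levels of 10470 to 20890 FPKM. Most of this sum was Lyz2, with group means of 9309 to 18464 FPKM, and Mertk was lowest, at 16.7 to 34.1 FPKM. Summed levels of the dendritic cell (5 genes), B cell (3) and T and NK cell (4) markers did not exceed 1.04, 1.91 and 0.56 FPKM. Fibroblast and neutrophil markers were present in all groups, at sums of 157 to 1180 and 230.4 to 1429 FPKM. Genotype went together with other differences. Xist was at 33.4 to 53.8 FPKM on average in Nlrp3-/- groups and at most 0.028 in wild-type groups, and Ddx3y was listed at 0 in Nlrp3-/- and at 8.52 to 9.10 in wild-type groups, so genotype and sex of the mice cannot be told apart.

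Of the members, 7 lie on mouse chromosome 17 and span 1351.6 kb from Tapbp to H2-D1. In this region Psmb9, Tap1, Psmb8 and Tap2 sit side by side within 34.3 kb, at chr17:34181987-34216321 of GRCm38. B2m is on chromosome 2, and Psmb10 and Nlrc5 are on chromosome 8. RefSeq promoter windows (GRCm38.p6) were at hand for 8 of the 10 members. Tap2 and Nlrc5 had no entry. The sequences of the class I chains are shown because they hold the same 4 motifs, and the stretch between Tap1 and Psmb9 because one short sequence separates both starts. Capitals mark matches, on either strand, to the kB motif (bound by NF-kB), the IRF core AANNGAAA, the CRE-like TGACG and the CCAAT box CCAAT. The first 3 sequences are the 250 bases before the start site, read 5′ to 3′ along the gene. They lie at chr17:34000348-34000597 (minus strand) for H2-K1, chr17:35262844-35263093 (plus strand) for H2-D1 and chr2:122147437-122147686 (plus strand) for B2m. The last one is the 225 bases between the starts at chr17:34187331-34187555, on the plus strand, with Psmb9 leaving to the left and Tap1 to the right.
H2-K1: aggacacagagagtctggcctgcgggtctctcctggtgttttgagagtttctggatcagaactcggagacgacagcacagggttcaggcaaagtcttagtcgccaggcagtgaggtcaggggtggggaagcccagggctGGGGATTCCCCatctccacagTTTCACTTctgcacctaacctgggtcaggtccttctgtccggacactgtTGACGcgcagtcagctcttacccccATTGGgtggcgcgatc
H2-D1: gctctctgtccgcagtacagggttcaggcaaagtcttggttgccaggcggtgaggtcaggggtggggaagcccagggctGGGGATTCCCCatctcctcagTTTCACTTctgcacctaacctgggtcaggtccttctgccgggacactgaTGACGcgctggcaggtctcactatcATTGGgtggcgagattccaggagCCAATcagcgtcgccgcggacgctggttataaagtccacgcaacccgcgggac
B2m: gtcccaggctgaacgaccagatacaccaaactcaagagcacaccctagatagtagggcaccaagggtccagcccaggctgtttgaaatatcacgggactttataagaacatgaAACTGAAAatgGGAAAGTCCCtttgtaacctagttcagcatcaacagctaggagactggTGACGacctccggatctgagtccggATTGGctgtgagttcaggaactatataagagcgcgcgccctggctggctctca
Tap1 and Psmb9: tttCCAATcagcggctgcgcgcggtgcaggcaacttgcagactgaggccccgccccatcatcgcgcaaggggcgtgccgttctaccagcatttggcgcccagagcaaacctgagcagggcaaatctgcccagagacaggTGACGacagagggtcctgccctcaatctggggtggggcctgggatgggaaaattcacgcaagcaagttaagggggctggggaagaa

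The 3 class I chain promoters carried the motifs in nearly the same order. With the start site at position 0, H2-K1 had kB from position -111, the IRF core at -90, the CRE-like motif at -41 and a CCAAT box at -16. H2-D1 had them at -171, -150, -101 and -76, with 1 more CCAAT box at -53. H2-K1 had a further CCAAT box too, but after its annotated start, at position 8. In both genes the kB stretch holds 2 overlapping matches shifted by 1 base. B2m had the IRF core first, at -137, then kB at -126, the CRE-like motif at -78 and a CCAAT box at -53. The upstream sequences of H2-K1 and H2-D1 shared an unbroken run of 47 bases. This run lay at -141 to -95 in H2-K1 and at -201 to -155 in H2-D1. Their alignment had 120 gap columns, with 89.5% of the paired bases and 54.8% of all columns identical. Since the shared bases lie further from the annotated start in H2-D1, the gap columns and the 54.8% depend on where the starts are annotated. Of 32851 RefSeq promoters, 3.9% held a kB match, 21.3% an IRF core, 17.8% a CRE-like motif and 33.8% a CCAAT box in the same 250 bases, and 22 promoters (0.067%) held all 4. These 22 held 2 entries of H2-K1, and those of H2-D1, B2m, H2-Q4, H2-Q7, H2-T22, H2-M2, H2-M3 and H2-Aa. The others carry symbols without the H2 prefix: 1700054A03Rik, Ap4m1, Ebp, Esr2, Gm17750, Gm6034, Nrarp, Oasl1, Oaz1, Pxmp4, Rab28 and Slfn1. Gm6034 lies on chromosome 17 as the H2 genes do, and whether these genes belong to the class I family was not checked. Tap1 and Psmb9 held a CRE-like motif and a CCAAT box without kB or IRF core, Tapbp held CCAAT boxes, Psmb8 a GAS motif (TTCNNNGAA, in 7.02% of promoters) at -97, and Psmb10 none of the 5. A match describes the letters only and does not show that a factor binds there.

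**Figure D1:**
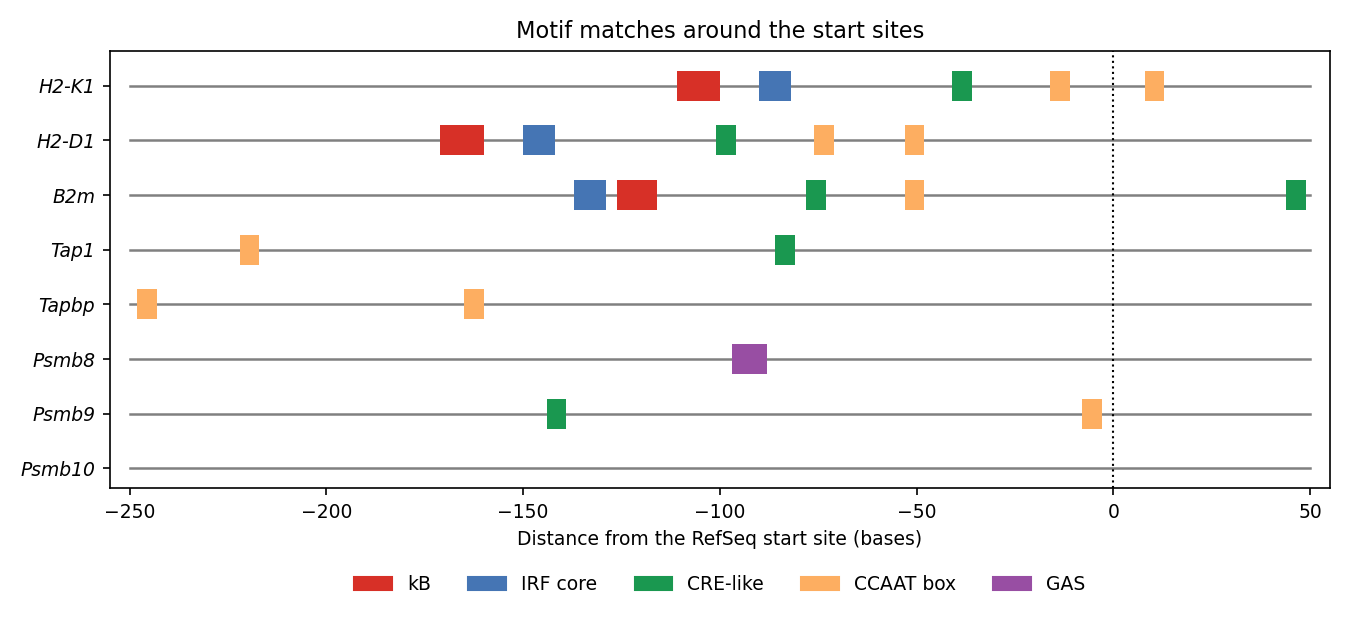
Motif matches from 250 bases before to 50 bases after the RefSeq start site (dotted line) of the 8 members with a promoter entry, with 1 line per gene and the distance in bases on the x axis. The 3 class I chain genes H2-K1, H2-D1 and B2m hold kB, IRF core, CRE-like and CCAAT matches before the start, while Psmb10 holds none.

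All 10 members rose with LPS+ATP in wild-type and in Nlrp3-/- BMDMs, with no overlap between control and stimulated libraries in either genotype. All stimulated libraries lay above all control libraries for 23.9% of the tested genes in wild-type and 21.8% in Nlrp3-/- cells. Of all tested genes, 23.3% rose and 53.1% fell in wild-type cells, and 20.6% rose and 53.8% fell in Nlrp3-/- cells (limma, Benjamini-Hochberg adjusted p under 0.05 over all tested genes). No member fell, at the adjusted or at an unadjusted threshold of 0.05. A rise of at least 2-fold was seen for 7 members in wild-type and 8 in Nlrp3-/- cells, against 8.25% and 6.64% of all genes. The members' median log2 fold change was 1.97 in wild-type cells, where the median of all tested genes was -0.25, and 1.96 in Nlrp3-/- cells, where it was -0.24. Together the 10 genes held 1.30% ± 0.0062 (SD, n = 3) of all FPKM in wild-type control libraries and 2.36% ± 0.053 with LPS+ATP, and 1.27% ± 0.0072 and 2.36% ± 0.043 in Nlrp3-/- cells. Median-ratio scaling between libraries moved the all-gene median by 0.24 in wild-type and 0.23 in Nlrp3-/- cells and the share of higher genes among all calls from 30.5% to 49.1% and from 27.6% to 50.2%, and the 10 members rose after it as well. Fold changes were fitted on log2(FPKM + 1), a scale that understates the change of low genes. Markers of cell types moved with stimulation too, in both directions. Of the 5 neutrophil markers tested, 1 was higher and 4 were lower with LPS+ATP in each genotype. Of the 6 macrophage markers, 2 were higher and 4 lower in wild-type, and 3 and 3 in Nlrp3-/- cells. Of the 5 fibroblast markers, 4 were higher and 1 lower in wild-type, and 2 and 3 in Nlrp3-/- cells. Among all tested genes, 53.1% and 53.8% fell. The part of these markers in the members' values was not tested.

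**Figure D2:**
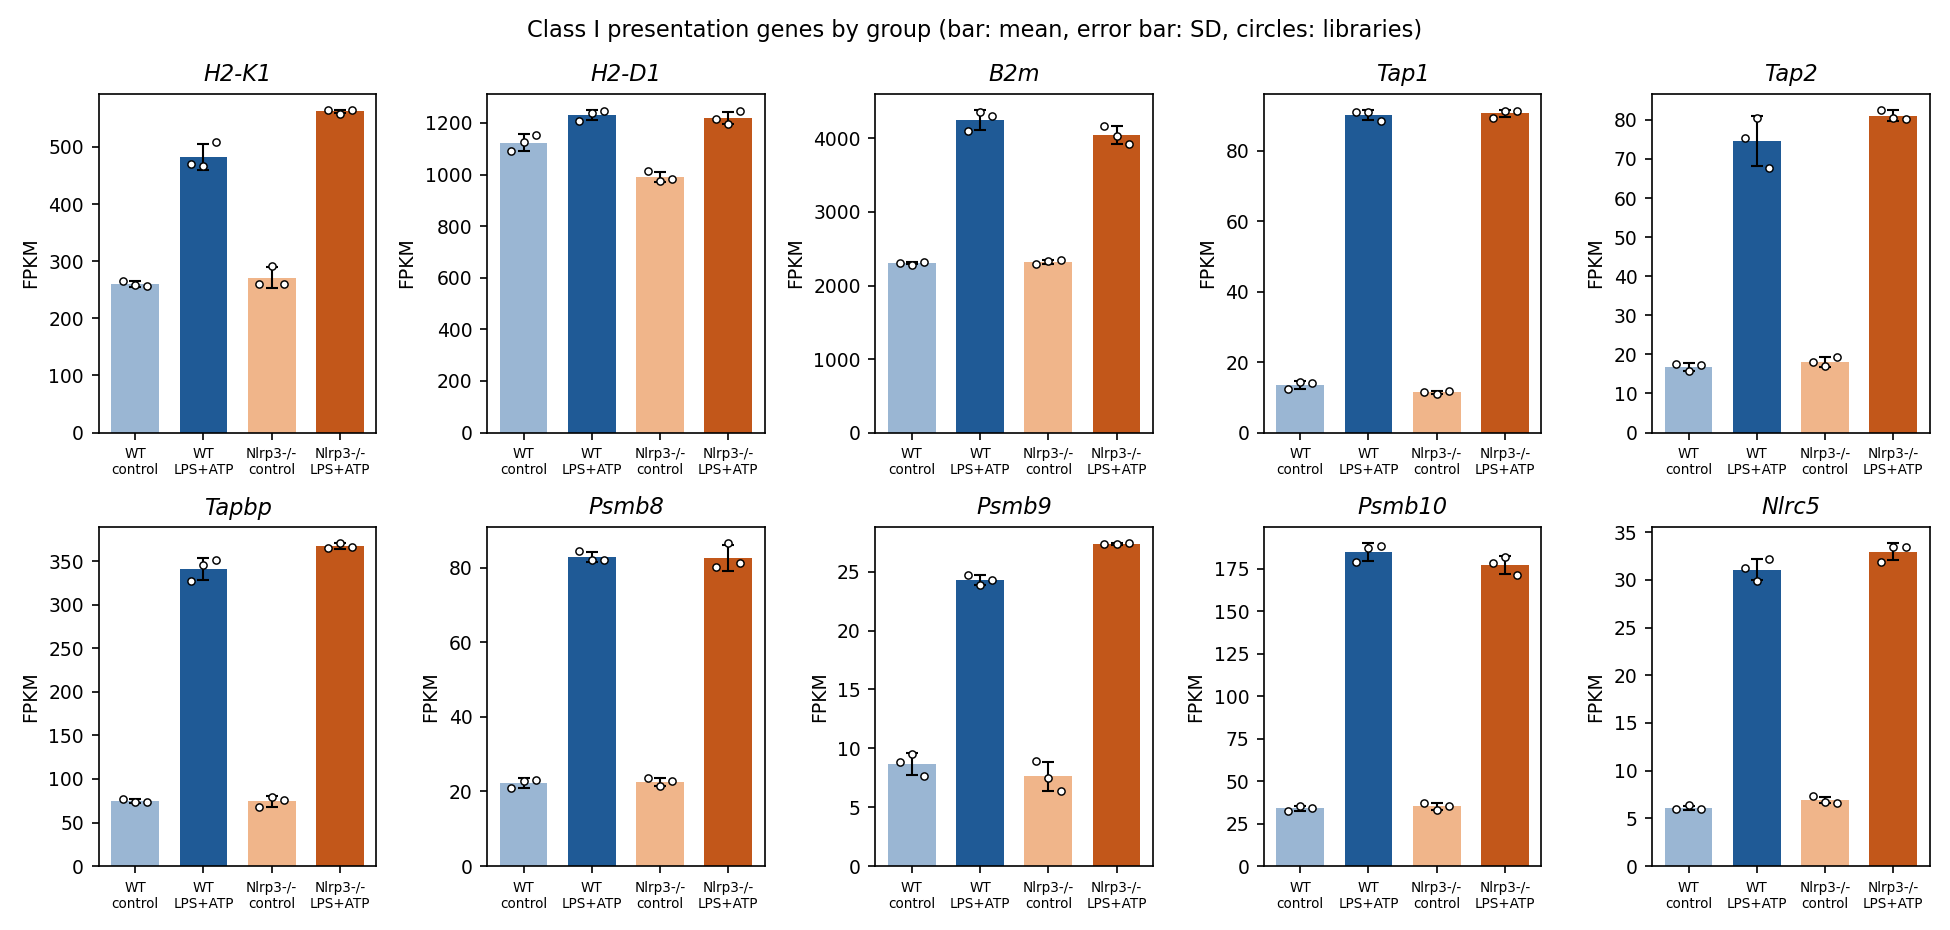
FPKM of the 10 members in each library. Bars show the mean of 3 libraries, error bars the SD and circles the single libraries, for wild-type (WT, blue) and Nlrp3-/- (orange) BMDMs without (pale) and with (dark) LPS+ATP. In every panel the stimulated libraries lie above the control libraries of the same genotype, by the smallest fold for H2-D1.

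The class I chains were the most abundant members and rose the least. H2-K1 encodes the heavy chain of the classical molecule H-2K. Its level was 266, 258 and 257 FPKM in wild-type control and 470.0, 467 and 508 FPKM in wild-type LPS+ATP libraries. In Nlrp3-/- cells it was 259.9, 292 and 261 FPKM without and 564, 558 and 564 FPKM with LPS+ATP. The stimulated libraries of both genotypes were thus well above both control groups. The log2 fold change was 0.89 (SE 0.046, adjusted p = 9.488e-09) in wild-type and 1.05 (SE 0.046, adjusted p = 2.801e-09) in Nlrp3-/- cells. H2-D1 encodes the heavy chain of H-2D. It stood at 1092, 1125 and 1155 FPKM in wild-type control and at 1207, 1239 and 1246 FPKM in wild-type LPS+ATP libraries. The corresponding Nlrp3-/- values were 1012, 976 and 983.9 FPKM and 1214, 1197 and 1245 FPKM. The control groups of the genotypes did not overlap, and the stimulated groups did. The rise of H2-D1 was the smallest of the 10, at a log2 fold change of 0.13 (SE 0.027, adjusted p = 0.001034) in wild-type and 0.30 (SE 0.027, adjusted p = 1.615e-06) in Nlrp3-/- cells. In wild-type cells this was 1.09-fold, a value above that of 73.5% of the tested genes. H2-K1 and H2-D1 are near copies, with 74.8% of the H2-K1 transcript at least 90% identical to H2-D1, and how reads matching both were counted is not stated, so the split between them is uncertain.

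B2m, the light chain shared by class I molecules, was the most abundant member in all 12 libraries. It was at 2310, 2285 and 2322 FPKM in wild-type control and at 4101, 4357 and 4310 FPKM in wild-type LPS+ATP libraries. Nlrp3-/- libraries had 2289, 2332 and 2340.4 FPKM without and 4170, 4033 and 3929 FPKM with stimulation. The genotypes overlapped in both states. B2m rose by a log2 fold change of 0.88 (SE 0.028, adjusted p = 1.267e-10) in wild-type and 0.80 (SE 0.028, adjusted p = 4.167e-10) in Nlrp3-/- cells. Since B2m rose more than H2-D1, the balance of the chains shifted. The ratio of B2m to the sum of H2-K1 and H2-D1 went from 1.67 ± 0.031 to 2.49 ± 0.059 in wild-type and from 1.84 ± 0.040 to 2.27 ± 0.090 in Nlrp3-/- cells (SD, n = 3, no test). H2-K1 made up 18.8% ± 0.70 of the sum of both heavy chains in wild-type control and 28.1% ± 0.79 in wild-type LPS+ATP libraries, and 21.5% ± 1.39 and 31.6% ± 0.34 in Nlrp3-/- cells.

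The peptide transporter and its loading factor changed more than the chains they serve. Tap1 encodes one chain of the TAP transporter. Its level was 12.3, 14.5 and 14.1 FPKM in wild-type control and 91.0, 90.9 and 88.4 FPKM in wild-type LPS+ATP libraries. In Nlrp3-/- libraries it was 11.5, 10.9 and 11.9 FPKM without and 89.3, 91.3 and 91.1 FPKM with stimulation. In FPKM as deposited, both genotypes came to almost one level from control levels that did not overlap. After median-ratio scaling, Tap1 with LPS+ATP was lower in Nlrp3-/- cells, by a log2 difference of -0.21. Tap1 had the largest rise of the 10, a log2 fold change of 2.64 (SE 0.052, adjusted p = 2.116e-12) in wild-type and 2.88 (SE 0.052, adjusted p = 1.367e-12) in Nlrp3-/- cells. These log2 values were above those of 98.2% and 98.7% of the tested genes. In FPKM, without the added 1, the stimulated mean was 6.62 and 7.92 times the control mean.

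Tap2, the other transporter chain, was at 17.5, 15.7 and 17.3 FPKM in wild-type control and 75.3, 80.5 and 67.8 FPKM in wild-type LPS+ATP libraries. It was at 18.1, 16.9 and 19.4 FPKM and at 82.6, 80.5 and 80.2 FPKM in Nlrp3-/- cells. The rise was similar in size in both genotypes, with log2 fold changes of 2.08 (SE 0.066, adjusted p = 1.121e-10) and 2.10 (SE 0.066, adjusted p = 1.393e-10). The 2 chains work as a pair, and their ratio turned over: Tap1 was at 0.813 ± 0.107 of Tap2 in wild-type control and at 1.21 ± 0.087 in wild-type LPS+ATP libraries, and at 0.631 ± 0.017 and 1.12 ± 0.031 in Nlrp3-/- libraries (SD, n = 3, no test). Tapbp encodes tapasin, which holds class I molecules at the transporter. It was at 77.4, 73.3 and 73.6 FPKM in wild-type control and at 327, 346 and 351 FPKM in wild-type LPS+ATP libraries. Its Nlrp3-/- values were 67.2, 79.0 and 76.2 FPKM and 365, 371 and 366 FPKM. The control groups overlapped, and the stimulated Nlrp3-/- libraries were all above the wild-type ones. Tapbp rose by a log2 fold change of 2.18 (SE 0.053, adjusted p = 1.159e-11) and 2.30 (SE 0.053, adjusted p = 9.863e-12). Tapbp shares 149 exon bases with Zbtb22, a gene at 6.99 to 14.8 FPKM on the same strand, and Tap1 shares 212 exon bases with Psmb9 on the opposite strand. Whether counting used strand is not stated.

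The 3 immunoproteasome subunits replace the constitutive catalytic subunits and favour peptides that class I molecules bind. Psmb8 (LMP7) was at 20.8, 22.7 and 23.2 FPKM in wild-type control and 84.3, 82.2 and 82.0 FPKM in wild-type LPS+ATP libraries. In Nlrp3-/- cells it was at 23.5, 21.5 and 22.9 FPKM and at 80.1, 86.6 and 81.3 FPKM. The genotypes overlapped in both states. The log2 fold changes were 1.85 (SE 0.048, adjusted p = 1.97e-11) and 1.82 (SE 0.048, adjusted p = 2.956e-11). Psmb9 (LMP2) had the lowest level of the 3. It was at 8.86, 9.53 and 7.62 FPKM in wild-type control and 24.7, 23.9 and 24.3 FPKM in wild-type LPS+ATP libraries. Nlrp3-/- libraries had 8.92, 7.52 and 6.40 FPKM without and 27.3, 27.3 and 27.4 FPKM with stimulation. Relative to its mean, it had the widest SD of the 10 members among control libraries of either genotype. Psmb9 rose by a log2 fold change of 1.39 (SE 0.095, adjusted p = 1.061e-07) in wild-type and 1.73 (SE 0.095, adjusted p = 2.069e-08) in Nlrp3-/- cells. Psmb10 (MECL-1) is the only subunit of the 3 encoded outside the MHC. It was at 32.5, 35.5 and 34.0 FPKM in wild-type control and 179, 187 and 188 FPKM in wild-type LPS+ATP libraries, and at 36.8, 33.2 and 35.4 FPKM and 178, 182 and 172 FPKM in Nlrp3-/- libraries. It had the largest rise of the subunits, at log2 fold changes of 2.41 (SE 0.045, adjusted p = 1.411e-12) and 2.30 (SE 0.045, adjusted p = 2.577e-12).

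The constitutive counterparts Psmb5, Psmb6 and Psmb7 rose as well, and by less. Their log2 fold changes were 0.90, 1.01 and 0.64 in wild-type and 0.82, 0.94 and 0.66 in Nlrp3-/- cells, all past the test. The 3 inducible subunits held 28.3% ± 0.59 of the FPKM of all 6 in wild-type control and 48.2% ± 0.21 in wild-type LPS+ATP libraries. In Nlrp3-/- cells the share was 30.6% ± 0.63 without and 51.7% ± 0.30 with stimulation (SD, n = 3, no test). The libraries of the 4 groups did not overlap in this share. Between genotypes none of the 3 inducible subunits was past the test in either state. Psmb6, which counts only in the sum of all 6, was at 49.3 FPKM on average in Nlrp3-/- and 66.1 in wild-type control libraries. The pairs differed widely. Psmb10 stood at 1.83 ± 0.12 times Psmb7 in wild-type control and 6.28 ± 0.14 times with LPS+ATP, whereas Psmb9 stood at 0.131 ± 0.011 and 0.181 ± 0.0065 of Psmb6 and Psmb8 at 0.280 ± 0.0076 and 0.555 ± 0.030 of Psmb5. In Nlrp3-/- cells the Psmb9 to Psmb6 ratio reached 0.286 ± 0.0049 with LPS+ATP. There Psmb9 was at 27.4 FPKM on average against 24.3 in wild-type cells, and Psmb6 at 95.6 against 134 FPKM.

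Nlrc5, the transactivator of class I genes, was the member with the lowest level in wild-type control cells. It was at 5.97, 6.35 and 5.95 FPKM there and at 31.2, 29.9 and 32.1 FPKM in wild-type LPS+ATP libraries. In Nlrp3-/- cells it was at 7.29, 6.77 and 6.65 FPKM and at 31.9, 33.5 and 33.5 FPKM. The control groups did not overlap, and the stimulated groups did. Nlrc5 rose by a log2 fold change of 2.18 (SE 0.045, adjusted p = 2.893e-12) in wild-type and 2.10 (SE 0.045, adjusted p = 4.945e-12) in Nlrp3-/- cells. Across the 12 libraries, which fall into 4 groups and share their libraries for all genes, Pearson's r of log2 values with Nlrc5 was 0.997 for Psmb10 and Psmb8, 0.995 for Tapbp and Tap2, 0.992 for Tap1, 0.991 for B2m, 0.985 for H2-K1 and Psmb9, and 0.813 for H2-D1. Among the tested genes other than Nlrc5, these values ranked 19 (Psmb10), 22 (Psmb8), 72 (Tapbp), 83 (Tap2), 157 (Tap1), 204 (B2m), 361 (H2-K1), 380 (Psmb9) and 1768 (H2-D1). Genes outside the set were thus closer to Nlrc5 than any other member, and control by NLRC5 was not tested. The 5 tested genes most like Nlrc5 by this measure were Adgb (0.9996), Gbp10 (0.9991), Gbp2 (0.9990), Gbp4 (0.9988) and Acsl5 (0.9985). Gbp2, Gbp4 and Gbp10 encode interferon-inducible guanylate-binding proteins. Gbp2 went from 16.3 to 695 FPKM in wild-type and from 20.4 to 713 FPKM in Nlrp3-/- cells.

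FPKM allows an order of levels between genes. In wild-type control libraries it ran B2m, H2-D1, H2-K1, Tapbp, Psmb10, Psmb8, Tap2, Tap1, Psmb9 and Nlrc5, and the libraries of neighbouring genes did not overlap. With LPS+ATP, Tap1 moved above Psmb8 and Tap2, and Nlrc5 above Psmb9, again with no overlap between neighbours in wild-type cells. In Nlrp3-/- cells, Psmb9 and Nlrc5 overlapped without stimulation, and Psmb8 and Tap2 overlapped with it.

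**Figure D3:**
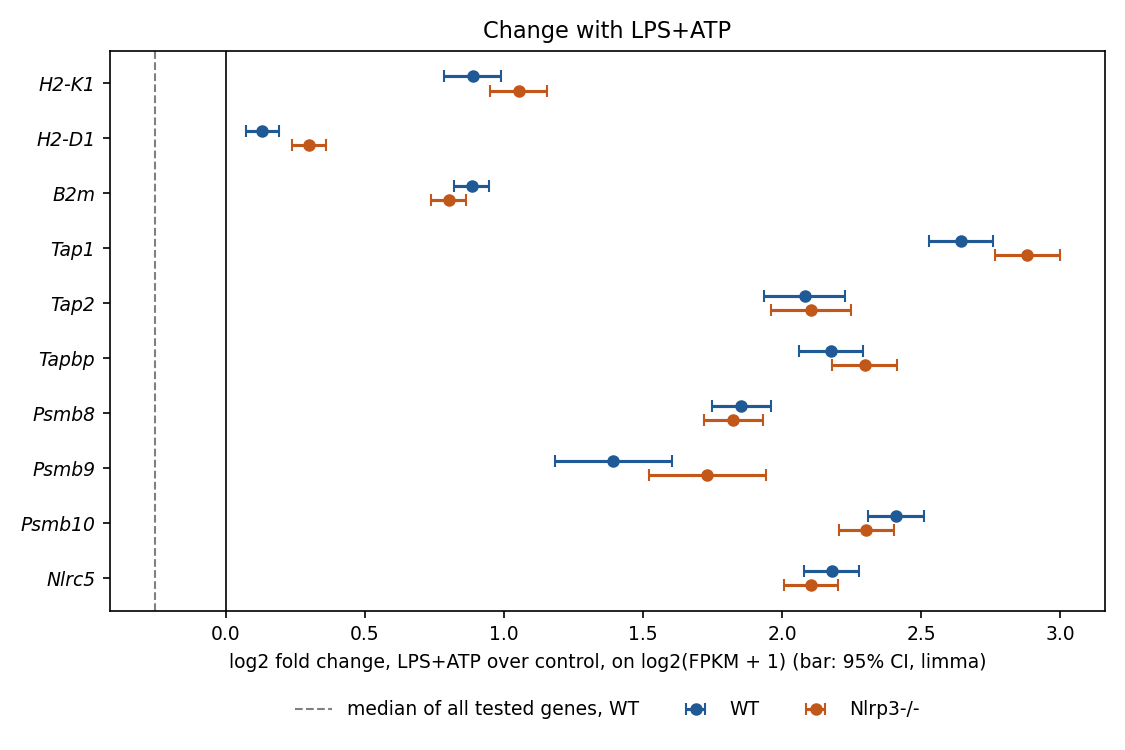
Log2 fold change of LPS+ATP over control for the 10 members in wild-type (blue) and Nlrp3-/- (orange) BMDMs, on log2(FPKM + 1), with 95% confidence intervals from limma. All intervals lie above 0, from 0.13 for H2-D1 in wild-type to 2.88 for Tap1 in Nlrp3-/- cells, and the dashed line marks the median of all tested genes in wild-type cells at -0.25.

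Other genes of class I presentation were taken from a list of 32, all of them tested. With LPS+ATP, 23 rose and 1 fell in wild-type cells, and 26 rose and 2 fell in Nlrp3-/- cells, where 23.3% and 20.6% of all tested genes rose. The list's median log2 fold change was 0.94 and 0.89. A rise of at least 2-fold was seen for 14 and 15, against 8.25% and 6.64% of all genes. All 8 non-classical and Qa heavy chains rose in both genotypes, led by H2-Q6 with log2 fold changes of 3.49 and 3.94, H2-Q7 with 3.29 and 3.63, and H2-T24 with 2.93 and 2.98, the first of each pair being wild-type. H2-T22 rose by 2.57 and 2.94. These values are uncertain where reads match several copies. H2-Q6 is at least 95% identical to H2-Q7 over 43.8% of its transcript, and H2-T22 to H2-T10 over 81.8%. Of the proteasome activators, Psme1 rose by 1.40 and 1.65 and Psme2 by 2.42 and 2.36, while Psme3, singled out after its values were seen, was at 0.0018 and -0.059 and not past the test. Among the transcription factors, Irf1 rose by 2.74 and 1.89 and Rfx5, a subunit of the RFX complex with which NLRC5 works, by 0.93 and 0.75. The genes that fell were Rfxap (log2 fold change -0.37) in wild-type and Rfxank (-0.22) and Irf8 (-0.75) in Nlrp3-/- cells, named here after their values were seen, and each overlapped between control and stimulated libraries. After median-ratio scaling 28 of the 32 rose in each genotype, and these 3 genes were no longer past the test. Of all 12622 tested genes, 8988 in wild-type and 8267 in Nlrp3-/- cells were then past it, 49.1% and 50.2% of them as higher.

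The general chaperones of the endoplasmic reticulum had smaller values. Calreticulin (Calr), calnexin (Canx) and ERp57 (Pdia3), which were singled out after their values were seen, had log2 fold changes of -0.0049, -0.018 and -0.096 in wild-type cells, none past the test. They rose by 0.30, 0.18 and 0.13 in Nlrp3-/- cells. After median-ratio scaling all 3 were past the test in wild-type cells too, at 0.31, 0.30 and 0.22, so the wild-type result depends on the scaling. Their interaction terms were 0.30 (SE 0.028, adjusted p = 1.962e-05), 0.20 (SE 0.051, adjusted p = 0.01227) and 0.22 (SE 0.067, adjusted p = 0.02874), the last of which was not past the test after upper-quartile scaling (0.18, adjusted p = 0.07107).

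**Figure D4:**
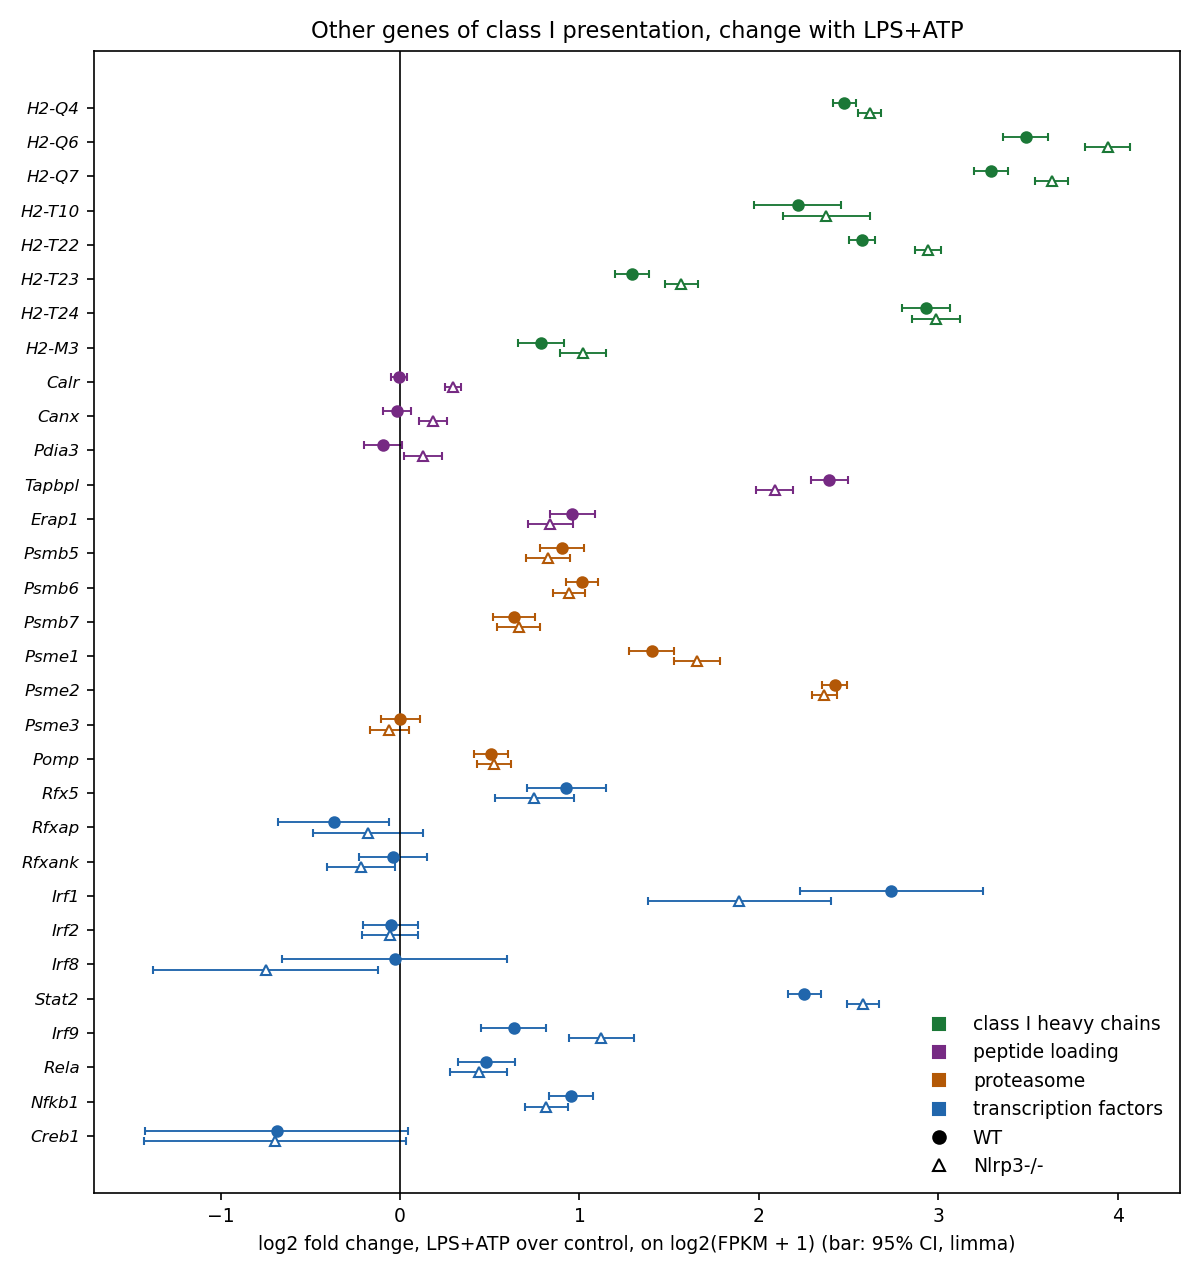
Log2 fold change of LPS+ATP over control, on log2(FPKM + 1), for other genes of class I presentation from the same list, with 95% confidence intervals from limma. Filled circles are wild-type and open triangles Nlrp3-/- BMDMs, and colours give the role. The 8 heavy chains all lie to the right of 0 (H2-Q6 at 3.49 and 3.94), and the transcription factors shown spread from Creb1 at -0.69 and -0.70, not past the test, to Irf1 at 2.74 in wild-type and Stat2 at 2.58 in Nlrp3-/- cells, with Creb1 and Stat2 named here after their values were seen.

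Between genotypes the members differed little, and the calls depended on the scaling. Without stimulation, 1 member was higher in Nlrp3-/- cells (33.3% of all tested genes were) and 2 were lower (14.5% of all). After median-ratio scaling, which moved the median of all genes in this comparison by -0.15 (log2), no member was higher (limma, at the adjusted or an unadjusted threshold of 0.05) and 8 were lower. That scaling moved the share of higher genes among all calls from 69.6% to 38.1%. It called 6145 of the 12622 tested genes, most of them as lower, against 6035 before. None of the 10 differed by 2-fold, against 6.71% of all genes, and the largest absolute difference was that of Tap1. H2-D1 was lower in Nlrp3-/- control libraries, with a log2 fold change of -0.18 (SE 0.027, adjusted p = 0.0001981), and Tap1 likewise, with -0.23 (SE 0.052, adjusted p = 0.00359). Both were past the test and lower under all 21 alternatives, at -0.38 to -0.16 and -0.41 to -0.19. Nlrc5 was higher by 0.16 (SE 0.045, adjusted p = 0.01353), but came to -0.02 after median-ratio scaling (adjusted p 0.01062 to 0.7888 over the alternatives), and lost the call without Nlrp3-/- control replicate 1, at 0.12 (adjusted p = 0.05676). It was not past the test after upper-quartile scaling (0.09) or with the compared groups alone (0.16, adjusted p = 0.05194) either. The other 7 members, from Psmb9 at -0.17 to Tap2 at 0.10, were not past the test, but Psmb9 was without Nlrp3-/- control replicate 1, at -0.28 (adjusted p = 0.01836).

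With LPS+ATP, H2-K1 alone was past the test as higher in Nlrp3-/- cells (35.9% of all tested genes were higher), and no member was lower (12.6% of all were). At an unadjusted p under 0.05, 1 member, B2m, was lower. The difference of H2-K1 was 0.22 (SE 0.046, adjusted p = 0.00202), 1.17-fold, with no overlap between genotypes, and fell to 0.10 after upper-quartile and 0.01 after median-ratio scaling, neither past the test (adjusted p 0.0002946 to 0.9355 over the alternatives). After median-ratio scaling, which moved the all-gene median here by -0.17, no member was higher at either threshold and 6 were lower. The share of higher genes among all calls moved from 74.0% to 41.9%. That scaling called 6466 of the 12622 tested genes, most of them as lower, against 6124 before. B2m had a log2 fold change of -0.07 (adjusted p = 0.05187), and passed the test without any one of Nlrp3-/- LPS+ATP replicate 1 (-0.10), wild-type LPS+ATP replicate 1 (-0.10) or wild-type control replicate 1 (-0.07). It was at -0.19 (adjusted p = 0.0001474) after upper-quartile and -0.29 (adjusted p = 1.22e-05) after median-ratio scaling. After upper-quartile scaling 3 members, B2m, H2-D1 and Psmb10, were lower. There 5921 of the 12622 tested genes were called, 55.9% of them as higher. The remaining 8 members lay between -0.06 (Psmb10) and 0.16 (Psmb9), none past the test. Of these, Tap2 was past it without wild-type LPS+ATP replicate 2 (0.18, adjusted p = 0.04886). Tapbp was past it with the compared groups alone (0.11, adjusted p = 0.02584) and without Nlrp3-/- control replicate 1 (0.11, adjusted p = 0.02833). Psmb9 was past it with the compared groups alone (0.16, adjusted p = 0.003729). Again no member differed by 2-fold, against 5.05% of all genes. Relative to the median of all tested genes (0.09 without and 0.11 with LPS+ATP), the members' median was lower, at 0.02 and 0.04.

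**Figure D5:**
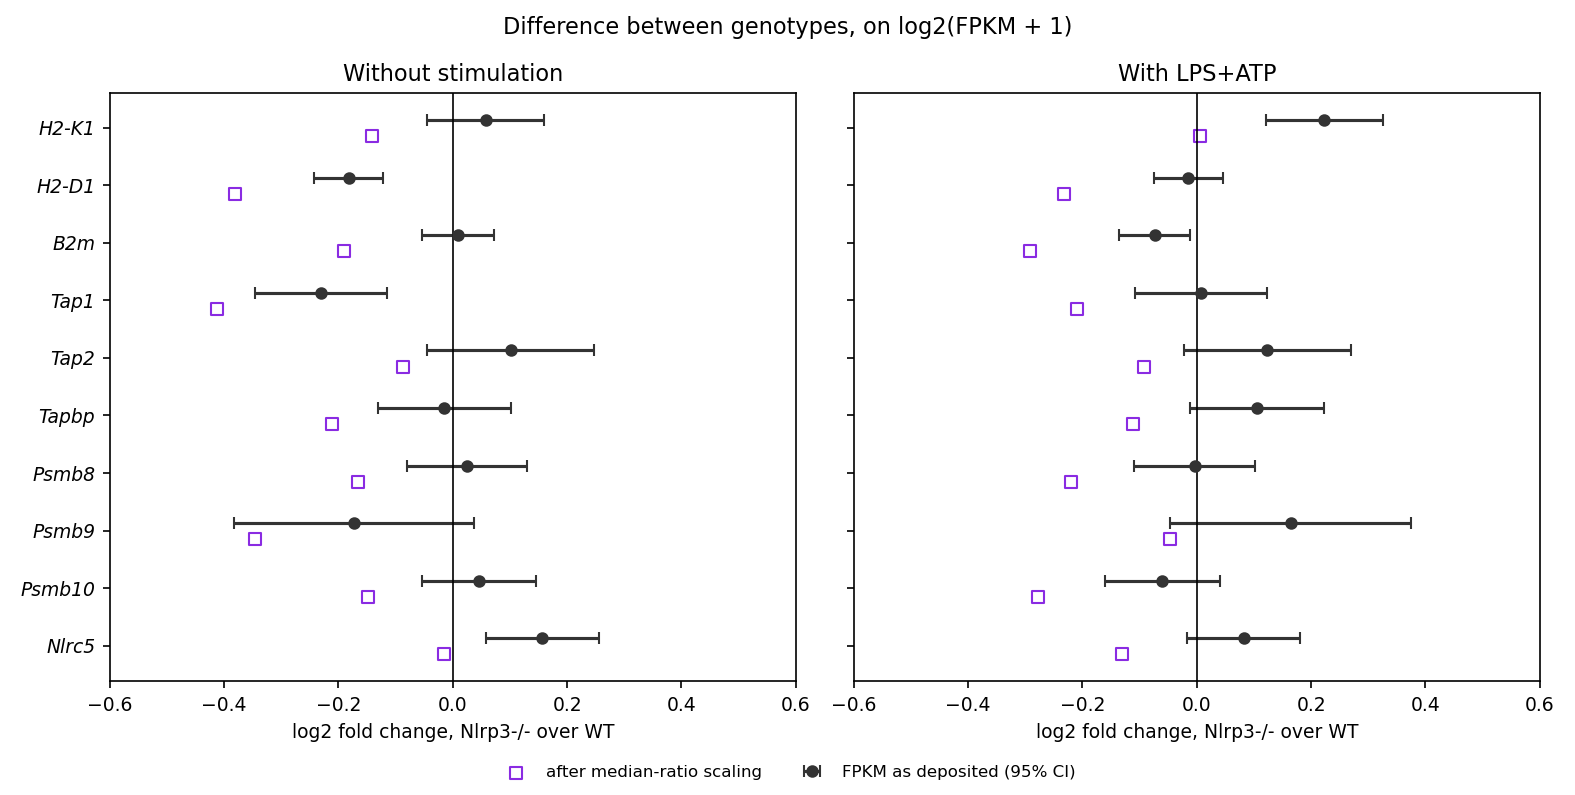
Log2 fold change of Nlrp3-/- over wild-type BMDMs for the 10 members, on log2(FPKM + 1), without stimulation (left) and with LPS+ATP (right). Circles with 95% confidence intervals come from FPKM as deposited, and open squares from the same values after median-ratio scaling, which turns several members from above to below 0 (Nlrc5 without stimulation from 0.16 to -0.02, Tap1 with LPS+ATP from 0.01 to -0.21) and leaves H2-D1 and Tap1 without stimulation below 0.

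Levels of other cell types' markers moved with genotype. All 5 fibroblast markers were higher in Nlrp3-/- cells in both states, with summed levels of 157 to 161 FPKM in wild-type and 1164 to 1180.0 FPKM in Nlrp3-/- control libraries, and 180.1 to 183 and 890 to 905 FPKM with LPS+ATP. All 5 neutrophil markers tested (of 6) were higher without stimulation and 4 with it. Their sums were 230.4 to 263 FPKM in wild-type and 1386 to 1429 FPKM in Nlrp3-/- control libraries, and 306 to 318 and 619 to 621 FPKM with LPS+ATP. Of the 6 macrophage markers, 4 were lower in Nlrp3-/- cells in each state. The part of these markers in the genotype values of the members was not tested, and in bulk RNA fewer cells of a type and less RNA per cell cannot be told apart.

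The size of the response differed between genotypes for 2 members, both with a larger rise in Nlrp3-/- cells (14.7% of all tested genes had a higher and 13% a lower interaction term). For H2-D1 the interaction was 0.17 (SE 0.039, adjusted p = 0.007802). In FPKM as deposited its control levels were lower in Nlrp3-/- cells and its stimulated levels overlapped. With LPS+ATP it was lower too after upper-quartile (-0.14, adjusted p = 0.002008) and median-ratio scaling (-0.23, adjusted p = 3.082e-05). The H2-D1 interaction was past the test in 19 of 20 alternatives, and not when all genes were tested without a filter on low values (adjusted p = 0.06064, range 0.002583 to 0.06064). For Tap1 it was 0.24 (SE 0.074, adjusted p = 0.0339), and past the test in 7 of 20 alternatives (adjusted p 0.001508 to 0.09199). Among the single libraries, leaving out any other than wild-type control replicate 1 or Nlrp3-/- control replicate 3 lost the call. No member had a lower interaction term past the test (limma, 0 also at an unadjusted p under 0.05). After upper-quartile scaling B2m did, at -0.13 (adjusted p = 0.03038), and H2-D1 alone had a higher one. No term reached 2-fold, against 2.15% of all genes. H2-K1 (0.17, adjusted p = 0.08588) and Psmb9 (0.34, adjusted p = 0.08936) were not past the test, but depended on single libraries. H2-K1 was past it without wild-type LPS+ATP replicate 3 (0.20, adjusted p = 0.03955) or Nlrp3-/- control replicate 2 (0.22, adjusted p = 0.009098). Psmb9 was past it without wild-type control replicate 3 (0.42, adjusted p = 0.03969) or Nlrp3-/- control replicate 1 (0.44, adjusted p = 0.01477). Of the markers tested, 4 of 5 fibroblast, 4 of 5 neutrophil and 3 of 6 macrophage genes had a lower interaction term and 2 macrophage genes a higher one, and their part in these values was not tested.

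Of the 32 other pathway genes, 10 were higher and 8 lower in Nlrp3-/- cells without stimulation (33.3% and 14.5% of all tested genes), and 9 higher and 5 lower with LPS+ATP (35.9% and 12.6% of all). After median-ratio scaling the counts were 5 and 15, and 6 and 18. That scaling called 6145 and 6466 of all 12622 tested genes in these comparisons, 38.1% and 41.9% of them as higher. The largest differences were those of H2-Q6 and H2-Q7, whose values are uncertain because reads can match several copies. H2-Q6 was at 5.62, 6.64 and 5.79 FPKM in wild-type and 12.2, 12.2 and 10.8 FPKM in Nlrp3-/- control libraries. With LPS+ATP it was at 78.1, 78.3 and 76.0 FPKM and 195, 194 and 194 FPKM. The genotypes did not overlap in either state. The difference was 0.86 (SE 0.057, adjusted p = 2.327e-07) without and 1.32 (SE 0.057, adjusted p = 1.054e-08) with LPS+ATP, and 0.67 and 1.10 after median-ratio scaling. H2-Q7 differed by 0.83 (adjusted p = 2.476e-08) and 1.17 (adjusted p = 2.3e-09), and by 0.65 and 0.96 after that scaling. These were the only 2 of the 32 past 2-fold in a genotype comparison, both with LPS+ATP. H2-Q4, from the same cluster, was higher by 0.37 and 0.51. It is not a clearly separate signal, since 85.6% of the H2-Q6 transcript is at least 90% identical to H2-Q4. In the other direction, H2-T24 was lower by -0.47 and -0.42 and Stat2, a factor of the type I interferon response, by -0.47 and -0.14. Without stimulation H2-T22 (-0.34) was lower too, as were H2-T23 (-0.46) and H2-M3 (-0.32), both named after their values were seen. With LPS+ATP only H2-T23 of these was past the test, at -0.19.

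The constitutive subunit Psmb6 was lower in Nlrp3-/- cells in both states, by -0.42 (SE 0.040, adjusted p = 5.935e-06) and -0.49 (SE 0.040, adjusted p = 1.893e-06), with no overlap. Psmb5 and Psmb7 were not past the test in either state. Rfx5 was higher in both states, by 0.44 (SE 0.0997, adjusted p = 0.003486) and 0.27 (SE 0.0997, adjusted p = 0.04716), with no overlap. Its group means were low, from 1.94 FPKM in wild-type control to 5.69 FPKM in Nlrp3-/- LPS+ATP libraries. Psme2 was not past the test in either state. Psme1 was lower without stimulation (-0.30, adjusted p = 0.001119) and not past the test with LPS+ATP (-0.05). Irf1 was lower with LPS+ATP, at -0.62 (SE 0.23, adjusted p = 0.04351), but its libraries overlapped. They were at 107, 112 and 64.9 FPKM in wild-type and 83.9, 49.97 and 50.01 FPKM in Nlrp3-/- cells. The interaction term was past the test as higher for 12 of the 32 (14.7% of all tested genes) and as lower for 1 (13% of all). The latter was Tapbpl (-0.31, adjusted p = 0.005439), the tapasin-related editor TAPBPR, named after its value was seen. The largest terms past the test were those of Irf9 (0.49, adjusted p = 0.009546), H2-Q6 (0.46, adjusted p = 0.001594), H2-T22 (0.37, adjusted p = 0.0002062) and H2-Q7 (0.34, adjusted p = 0.001549).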

How the data were processed

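RNA of 12 mouse BMDM libraries was sequenced from kits named in the labels as Illumina TruSeq. The authors deposited 1 table of FPKM per gene and library. The submitters' processing notes name GRCm39 and DESeq2 1.24.0, while the aligner, the counter and the use of strand are not given in the sources used here. FPKM holds no counts, so no count test was run and depth in reads is unknown. Each library was read from the column named for it, and 0 columns were left unused. A gene entered when 3 or more libraries had 1 FPKM or above. After adding 1 and taking log2, limma 3.58.1 under R 4.3.3 fitted 4 group means, with a trend in the variance and Benjamini-Hochberg adjustment over all tested genes. The script was tested on simulated data. "Rose", "fell", "higher" and "lower" in counts mean an adjusted p under 0.05, and 2-fold means a log2 fold change of at least 1 as well. The 50 tests of members cover 10 genes in 5 comparisons. No test is stated by the study for these libraries.

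Members, gene lists and motifs were chosen with earlier results of these data known. Named were all members, fixed pathway genes (Psmb5, Psmb6, Psmb7, Psme1, Psme2, Irf1, Rfx5, and 1 counted but not reported by name here), the 4 pathway genes with the largest change past the test in a comparison, and the 5 genes most correlated with Nlrc5. Their values in the other comparisons stand beside, and names picked outside this rule after their values were seen are marked. Itgam was on 2 rows and was not used as a marker. Alternatives were another pseudocount, no or a stricter filter, TPM, 2 scalings between libraries, a replicate block, no variance trend, the compared groups alone and leaving out each library. Positions and overlaps came from GENCODE M21 (GRCm38; 55154 of 55335 gene IDs matched), near copies from blastn 2.17.0+ and promoters from RefSeq (GRCm38.p6). Python 3.11.15 with pandas 2.3.3, biopython 1.88 and matplotlib 3.10.9 made tables and plots.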

Additional observations from a re-analysis of the deposited data

Results flagged for a closer look

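The response of H2-D1 to LPS+ATP differed between genotypes, with an interaction of 0.17 on the log2 scale (adjusted p = 0.007802, limma), a rise of 0.13 in wild-type and 0.30 in Nlrp3-/- cells. The interaction of Tap1 was 0.24 (adjusted p = 0.0339, limma), with rises of 2.64 and 2.88, but most alternatives did not keep this call. A higher interaction term was past the test for 14.7% of all tested genes, so 2 of 10 members is near that share. For both genes, in FPKM as deposited, the Nlrp3-/- control libraries lay below all wild-type control libraries and the stimulated libraries of the genotypes overlapped. After median-ratio scaling both were lower in Nlrp3-/- cells with LPS+ATP as well, at -0.23 (H2-D1) and -0.21 (Tap1). The call for Tap1 was kept in 7 of 20 alternatives and that for H2-D1 in 19.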

How the results depend on the processing

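All calls of stimulation held, for the 10 members in both genotypes, under all 21 alternatives. Genotype values depended on the scaling. With LPS+ATP the members past the test numbered 1, and 3 with the compared groups alone, 3 after upper-quartile and 6 after median-ratio scaling, and 1 to 2 without single libraries; the pathway count of 14 became 24 after median-ratio scaling. Without stimulation 3 members became 8 after median-ratio scaling. Of all 12622 tested genes, 6124 were past the test with LPS+ATP, and 5942 with the compared groups alone. The number was 5921 after upper-quartile and 6466 after median-ratio scaling. Without stimulation 6035 genes became 6145 after median-ratio scaling. The interaction count of 2 became 1 after median-ratio scaling and 0 with no filter (limma, where 4 had an unadjusted p under 0.05), and was 1 to 2 without single libraries. After upper-quartile scaling it stayed at 2, with Tap1 lost and B2m gained as lower. The number of tested genes rises without the filter; the cause was not tested further.

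The following log2 differences changed sign. After median-ratio scaling, without stimulation, B2m was at -0.19, H2-K1 at -0.14, Nlrc5 at -0.0162, Psmb10 at -0.15, Psmb8 at -0.17 and Tap2 at -0.0872. With LPS+ATP, Nlrc5 was at -0.13, Psmb9 at -0.0464, Tap1 at -0.21, Tap2 at -0.0922 and Tapbp at -0.11. After upper-quartile scaling, without stimulation, B2m was at -0.0638, H2-K1 at -0.0153, Psmb10 at -0.0256 and Psmb8 at -0.0448. With LPS+ATP, Nlrc5 was at -0.0352, Tap1 at -0.11 and Tapbp at -0.0149. As TPM, with LPS+ATP, H2-D1 was at 0.00811 and Psmb8 at 0.0190. The Tap2 interaction was -0.00508 after median-ratio and -0.0279 after upper-quartile scaling. Without single libraries, the ranges that crossed 0 were -0.0368 to 0.0184 (Psmb8) and -0.00604 to 0.0173 (Tap1) with LPS+ATP, -0.0197 to 0.0606 (Psmb8) and -0.0621 to 0.0529 (Tapbp) without stimulation, and -0.0641 to 0.0162 (Psmb8) and -0.0433 to 0.0789 (Tap2) for the interaction. The cause was not tested.

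Same-numbered libraries showed no shared deviation (r -0.0565 to 0.0528 over genes). Values near 0 over all genes cannot tell whether such libraries shared a mouse or culture, so a pairing stays unknown. With a replicate block, the members past the test numbered 10 and 10 for stimulation, 3 and 1 for genotype and 2 for the interaction. Without read counts, the precision of low genes such as Nlrc5 and Psmb9 rests on the spread between libraries. The limma fit took this spread over the 4 groups of 3 libraries together and drew on all tested genes.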
